A study of Mus musculus with 8 samples.

Results

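The 36 genes described here encode proteins of synaptic vesicles and of the machinery that releases their content: vesicle membrane proteins, SNARE proteins and complexins, synaptotagmins, and active zone and priming factors. They were named by function, and each was read from the probe set that is annotated to its symbol alone and has the highest mean. All 36 had such a probe set, out of 22180 genes read in this way. The 8 tumours form 1 group (n = 8). Each grew under the skin of a nude or a C57Bl/6 mouse from about 10000 mouse neural crest cells, injected 48 hours after the cells were infected with N-Myc, and was removed after about 50 days. For all tumours the injected N-Myc cells were a mixture with p53+/- and p53-/- genotypes. Neither the host nor the p53 status of a given tumour is labelled, nor whether tumours came from separate cultures or animals, so the p-values measure only the spread between these samples. There is 1 array per tumour, and differences between single tumours therefore have no replicate error to be set against. Normal tissue is not analysed here.

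Neurons and neuroendocrine cells release transmitters by fusing vesicles with the plasma membrane. A SNARE protein on the vesicle pairs with SNAREs on the plasma membrane, synaptotagmins sense calcium, complexins clamp and promote fusion, and Munc13, RIM and CAPS proteins prepare vesicles for release. Sympathetic neurons and chromaffin cells use the same machinery for small vesicles and for dense-core granules that hold catecholamines.

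The deposited values were alike between arrays, with median log2 levels of 5.63 to 5.75 and backgrounds of 5.45 to 5.66. They had already been processed, so they do not show how bright the raw arrays were. Background is the 95th percentile, on each array, of probe sets for odorant, pheromone and bitter taste receptor genes. Of 11 sympathetic neuroblast markers, 9 were measured, and all 9 passed the detection test. The mean log2 level of these 9 was 8.61 in tumour 6 and 10.31 to 11.02 in the other 7 tumours. In tumour 6 the noradrenaline enzyme gene Dbh was at 5.72 and the transcription factor gene Tfap2b, at 4.88, was below background, so this library stood apart on the markers of its label. The 9 did not move alike: Stmn2 and Tubb3 were still at 11.99 and 11.77 in tumour 6, and Prph was lowest in tumour 2 (6.95). Of 8 glial markers, 6 were measured (4 detected, with S100b and Gfap not), and these 6 averaged 9.24 in tumour 4, 7.78 in tumour 6 and 5.76 to 6.71 elsewhere. Fabp7 (11.51), Erbb3 (8.58) and Sox10 (8.05) in tumour 6 were exceeded only in tumour 4. The rest of the glial list went otherwise in tumour 6. Pmp22 (7.55) was under its median (7.62), S100b (5.03) was below background, and Gfap was at 5.93, against 10.71 in tumour 4. The 6 skeletal muscle markers, of which 3 were detected and Myod1, Myh4 and Mylpf were not, averaged 8.28 in tumour 6 and 5.58 to 7.31 elsewhere. Myh4 was at 8.96 in tumour 6 and at most 5.68 elsewhere. Acta1 was at 10.43 in tumour 6 and 10.14 in tumour 8, Tnnt3 at 9.44 in tumour 6 and 9.38 in tumour 3. Myod1 was highest in tumour 4 (5.84). In bulk tumour RNA, fewer cells of a type and less RNA per cell cannot be told apart.

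All but Syt9 and Cadps2 among the members were detected. The mean level of 34 of the 36 members exceeded background (limma, Benjamini-Hochberg adjusted p under 0.05 over all genes), or 94.4% of members, and 57.3% of all genes passed the same test. All 34 were above background in every one of the 8 tumours. Syt9, a synaptotagmin, averaged 5.76 ± 0.66 (SD, n = 8), which is 0.17 above background (limma, adjusted p = 0.421). Cadps2, the second CAPS priming factor, averaged 4.83 ± 0.89 (SD, n = 8), a difference from background of -0.76 (limma, adjusted p = 0.026). Its call below background was lost without any one of tumours 1, 2, 3, 4, 5, 7 or 8 (limma, adjusted p up to 0.0608 in the detection of Cadps2) and held without tumour 6 (limma, adjusted p = 3.6e-09). Probe sets differ in their response, so levels are compared here between tumours for a gene and not between genes.

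**Figure D1:**
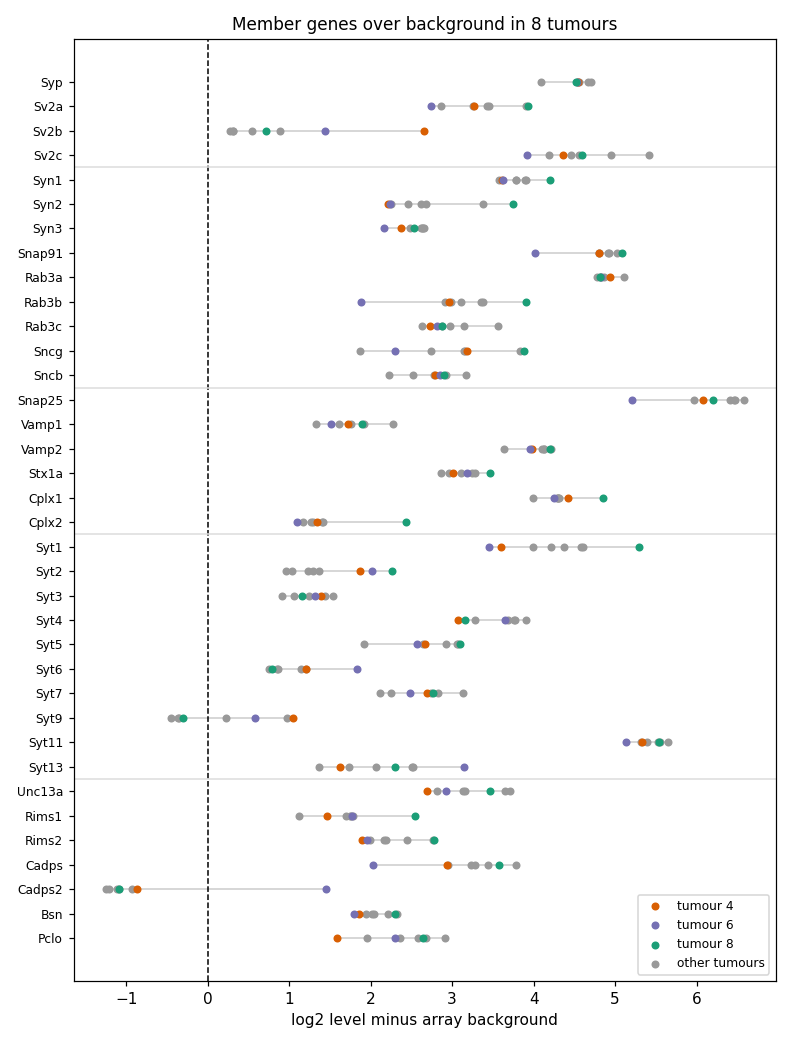
Log2 level minus that array's background (x axis) for the 36 member genes (y axis, in blocks by role), with 1 point per tumour and the dashed line at background. All points of 34 genes lie right of the line, while Syt9 and Cadps2 cross it.

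The members varied by different amounts. The median SD over the 8 tumours was 0.35 on the log2 scale for the 34 detected members and 0.23 for all detected genes. An SD above 0.41, the 99th percentile of the receptor genes, was found in 14 of the 34 (41.2%), against 14.6% of all detected genes. Without tumour 6, and with the limit taken from the remaining tumours (0.42), the count was 9 (26.5%), against 11.9% of all detected genes. In 8 of the 34 (23.5%) 1 tumour stood apart from the other 7 by a wide gap (Dixon's 95% limit), against 6.95% of all detected genes. For 17 of the 34 the highest tumour was less than 2-fold above the lowest, and for the other 17 it was 2-fold or more. The same split was not computed over all detected genes, so it does not set the members apart.

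Syp, Vamp2 and Stx1a, which encode core vesicle and fusion proteins, had SDs of 0.19, 0.18 and 0.19, below the median SD of all detected genes. Synaptophysin (Syp), the abundant membrane protein of small synaptic vesicles, was at 9.73 in tumour 5, with a median of 10.14 and 10.34 in tumour 1. Vamp2, the vesicle SNARE, was lowest in tumour 5 (9.27), had a median of 9.67 and was highest in tumour 1 (9.84). Stx1a, a plasma membrane SNARE, ran from 8.49 in tumour 5 over a median of 8.69 to 9.04 in tumour 8. From lowest to highest tumour, Syp spanned 1.53-fold, Vamp2 1.48-fold and Stx1a 1.46-fold. Rab3a, the main Rab3 GTPase of neuronal vesicles, had the smallest SD of all members (0.15), with 10.22 in tumour 3 and 10.74 in tumour 1.

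Snap25, the partner SNARE of Stx1a at the plasma membrane, did not share that evenness. It was at 10.74 in tumour 6, had a median of 11.88 and reached 12.11 in tumour 1. Tumour 6 lay 1.16 on the log2 scale below the mean of the other 7 tumours (11.90 ± 0.20, SD, n = 7), a 2.23-fold difference, and the lowest of those 7 was at 11.60. The SD of Snap25 was 0.45 over all 8 tumours and 0.20 without tumour 6. The second vesicle SNARE gene, Vamp1, was lowest in tumour 5 (6.97) and highest in tumour 7 (7.85).

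Complexins 1 and 2, which bind the assembled SNARE complex, were both highest in tumour 8. Cplx2 was at 8.00 there and at 6.87 ± 0.12 (SD, n = 7) in the other tumours, a 2.19-fold difference, with 7.0 as the next highest value. Cplx1 reached 10.43 in tumour 8, against 9.85 ± 0.15 (SD, n = 7) in the others. The distance was thus 1.13 on the log2 scale for Cplx2 and 0.57 for Cplx1.

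**Figure D2:**
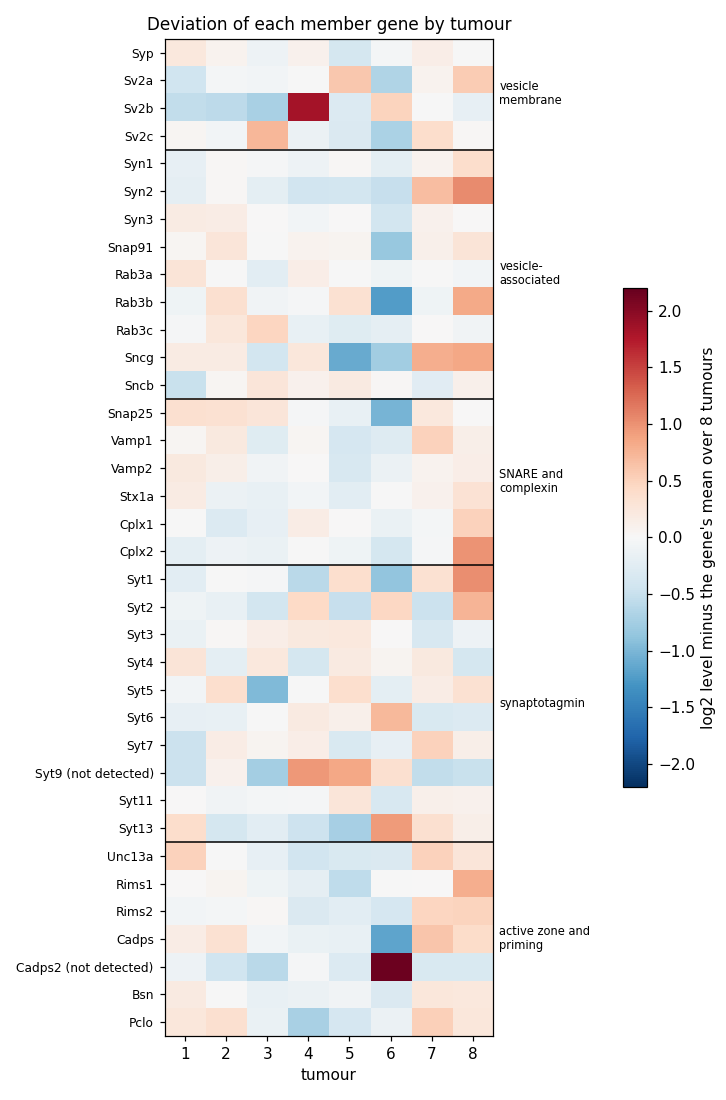
Log2 level minus the gene's own mean over the 8 tumours (colour), for the 36 members (rows, in blocks by role) and the 8 tumours (columns). The darkest blue cells are Rab3b, Cadps and Snap25 in tumour 6 and Sncg in tumour 5, and the darkest red ones are Cadps2 in tumour 6 and Sv2b in tumour 4.

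Among vesicle membrane proteins, the 3 SV2 genes had different patterns. SV2 proteins are transporter-like glycoproteins of vesicles, and Sv2a binds synaptotagmin 1. Sv2a was lowest in tumour 6 (8.28), had a median of 8.91 and was highest in tumour 5 (9.54), with 9.51 in tumour 8. Sv2c was lowest in tumour 6 (9.45), had a median of 10.13 and was highest in tumour 3 (10.87). Tumour 6 was the low end for both genes. Sv2b ran from 5.76 in tumour 3 over a median of 6.23 to 8.31 in tumour 4. It had the largest SD of the detected members (0.83) and was 4.27-fold higher in tumour 4 than the mean of the other 7 (6.22 ± 0.41, SD, n = 7), of which tumour 6 was the highest (6.97). Without tumour 4 its SD was 0.41. Sv2b averaged 0.89 above background (limma, adjusted p = 0.00655), a call that was lost against the 99th percentile of receptor probe sets (limma, adjusted p = 0.683, with 7.3e-07 to 0.683 over all alternatives). Tumours 4 and 6 also had the highest glial marker means given above, and the part of glial cells in the Sv2b values was not tested.

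The synapsins, which tether vesicles to each other and to actin, differed in how far tumours 7 and 8 stood out. Syn1 was lowest in tumour 6 (9.17), had a median of 9.38 and was highest in tumours 8 (9.78) and 7 (9.47). Syn2 was also lowest in tumour 6 (7.78), had a median of 8.08 and reached 9.33 in tumour 8 and 8.96 in tumour 7, with all other tumours at or below 8.31. Its level in tumour 8 was 2.28-fold above the mean of the other 7. Syn3 was lowest in tumour 6 (7.70) and lay within 8.04 and 8.28 in the rest. All 3 synapsin genes therefore had their minimum in the same tumour, by 0.25, 0.58 and 0.46 on the log2 scale below the mean of the other 7 (Syn1, Syn2, Syn3).

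The remaining vesicle-associated genes include the Rab3 GTPases, which guide vesicles to release sites, the synucleins and the clathrin assembly protein AP180 (Snap91). Rab3b was at 7.42 in tumour 6, had a median of 8.60 and was highest in tumour 8 (9.48). The next lowest value of Rab3b was 8.55, and tumour 6 was 2.66-fold below the mean of the other 7. Rab3c was lowest in tumour 5 (8.27) and highest in tumour 3 (9.01), but a second Rab3c probe set, 2.05 above background, was highest in tumour 4 and lowest in tumour 8, so the order of the tumours for Rab3c is uncertain. Snap91 was at 9.56 in tumour 6 and 10.50 ± 0.11 (SD, n = 7) in the other tumours, which lay between 10.38 and 10.66.

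Gamma-synuclein (Sncg), abundant in peripheral neurons, was lowest in tumours 5 (7.5) and 6 (7.84), had a median of 8.78 and was highest in tumours 8 (9.46) and 7 (9.41). From lowest to highest this was a 3.88-fold range. Beta-synuclein (Sncb), lowest in tumour 1 (7.86) and highest in tumour 3 (8.62), spanned 1.69-fold.

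Synaptotagmins, the calcium sensor family, differed in the tumours that held their extremes. Syt1, the fast sensor of small vesicles, was at 8.99 in tumour 6 and 9.26 in tumour 4, had a median of 9.83 and reached 10.87 in tumour 8, a 3.68-fold range. Syt2, a fast sensor related to Syt1, was lowest in tumour 5 (6.59), had a median of 6.96 and was highest in tumour 8 (7.84), followed by tumours 6 (7.55) and 4 (7.53). Tumours 4 and 6 were thus the lowest for Syt1 and among the 3 highest for Syt2. Syt13, which lacks the calcium-binding residues of Syt1, was lowest in tumour 5 (7.01), had a median of 7.69 and was highest in tumour 6 (8.68). Syt6 was likewise highest in tumour 6 (7.38, with 6.57 ± 0.20, SD, n = 7, in the others). The muscle and glial marker means were also high in tumour 6, and the part of such cells in the Syt13 and Syt6 values was not tested. The detection call of Syt6 (1.08 above background, limma, adjusted p = 1.56e-06) was lost against the 99th percentile of receptor probe sets (limma, adjusted p = 0.582, with 2.6e-11 to 0.582 over all alternatives).

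Syt5 was at 7.36 in tumour 3, had a median of 8.41 and was highest in tumour 5 (8.70). The other 7 tumours averaged 8.47 ± 0.24 (SD, n = 7), and tumour 3 was 2.15-fold below them. Syt7, a slow, high-affinity sensor that also acts on chromaffin granules, ran from 7.74 in tumour 1 to 8.72 in tumour 7. Syt3 (6.5 to 7.08) spanned 1.5-fold, Syt4 (8.73 to 9.41) 1.6-fold and Syt11 (10.67 to 11.29) 1.54-fold between their extreme tumours. For Syt4, all 3 probe sets were highest in tumour 1, although the means of those not used here differed from background by 0.01 and -0.61. Syt9, not detected on average, had its highest levels in tumours 4 (6.71), 5 (6.6) and 6 (6.12), and the others ranged from 5.0 to 5.86.

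The CAPS proteins prime dense-core granules for release, and their genes had opposite extremes in tumour 6. Cadps was at 7.57 there, had a median of 8.80 and was highest in tumour 7 (9.36). The other 7 tumours averaged 8.91 ± 0.30 (SD, n = 7), which is 2.52-fold above tumour 6. Cadps2 was at 6.99 in tumour 6, 1.45 log2 units above the background of that array, and at 4.24 to 4.80 in the other tumours, all below background. It was therefore at or under the measurable floor everywhere but in tumour 6, and the 5.54-fold distance between tumour 6 and the mean of the others is only as exact as values below background allow. In tumour 6 the neuroblast marker mean was lowest and the muscle marker mean highest, as given above. The part of these cell types in the Cadps and Cadps2 values was not tested.

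**Figure D3:**
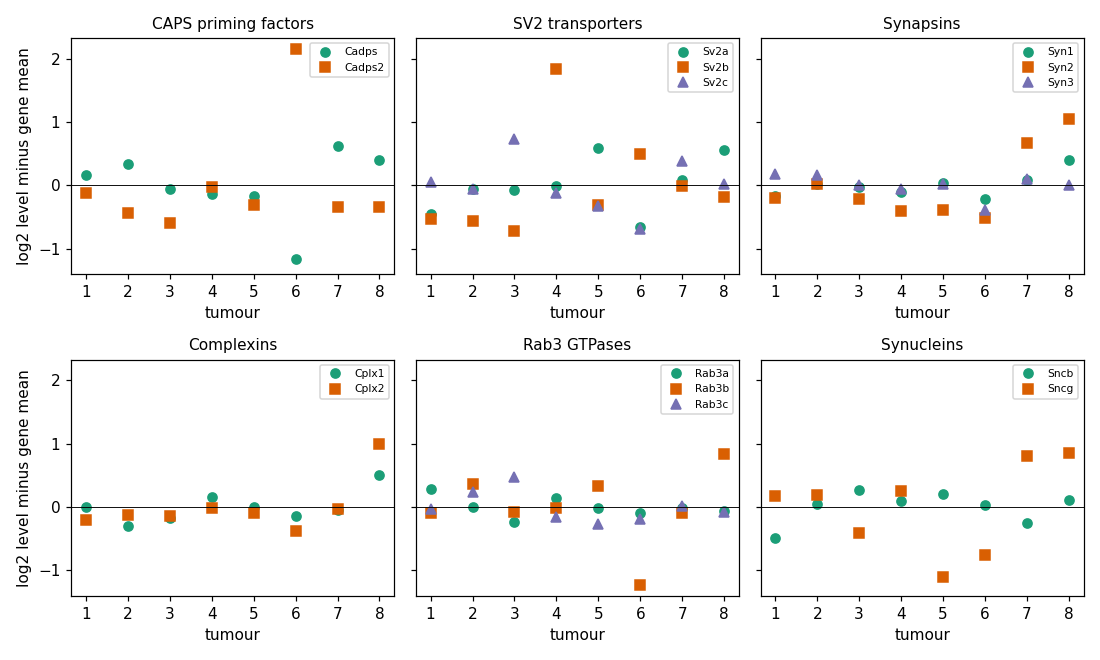
Log2 level minus the gene's mean over the 8 tumours (y axis) by tumour (x axis) for related genes of 6 families, with 1 marker shape per gene. Cadps and Cadps2 lie on opposite sides of 0 in tumour 6, Sv2b stands above its relatives in tumour 4, and Syn2, Cplx2 and Rab3b reach their highest values in tumour 8.

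The detected active zone and priming genes were highest in tumour 1, 7 or 8. Munc13-1 (Unc13a), the protein that opens syntaxin during priming, peaked in tumours 1 (9.29) and 7 (9.28) and was lowest in tumour 4 (8.36). The scaffold gene Rims1 was at 8.12 in tumour 8 and 7.21 ± 0.22 (SD, n = 7) in the other tumours, and Rims2 peaked in tumours 8 (8.35) and 7 (8.34), with 7.5 to 7.89 in the rest. Of the very large scaffold proteins bassoon and piccolo, Bsn ran from 7.33 in tumour 6 to 7.90 in tumour 7, and Pclo from 7.25 in tumour 4 to 8.49 in tumour 7. Tumour 7 or 8 was the highest for 5 of the 6 detected members of this group, Cadps among them, and for 25.7% of all detected genes. A second Bsn probe set, 0.60 above background, was also lowest in tumour 6 (6.05), but it was highest in tumour 8 (6.36). It was at 6.07 in tumour 7 and had r = 0.416 with the probe set used, so the place of tumour 7 for Bsn is uncertain.

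Of the 36 members, 28 had a promoter sequence in the RefSeq-based table (GRCm38.p6, 250 bases before and 50 after the annotated start). These were searched on both strands for the left and right parts of repressor element 1, the site bound by Rest, which silences neuronal genes outside neurons. The left part, TTCAGCACC, was in the windows of 2 members, Syn1 and Unc13a, and in those of 0.433% of all 27025 genes. The right part, GGACAGCGC, was in the window of Unc13a alone among the members and in 0.477% of all genes. The E-box CACGTG, the core site of Myc and Max, was in the windows of 3 of 28 members (Syt6, Sv2b and Cadps2, 10.7%) and of 8.09% of all genes, and the GC box GGGCGG in 23 of 28 (82.1%) and 38.2% of all genes. The windows of Unc13a and Syn1 are shown because they hold parts of the Rest site, and that of Cadps2 because it holds an E-box. Capitals mark the matches to the parts of the Rest site, to the E-box and, in Syn1, to a cAMP response element, TGACGTCA, found in 1 member and 2.03% of all genes. GC boxes, which the windows of Unc13a and Cadps2 also hold, are left in lower case. The matches in capitals do not overlap. A match is a run of letters and no measured binding.
Unc13a, chr8:71671708-71672007, minus strand: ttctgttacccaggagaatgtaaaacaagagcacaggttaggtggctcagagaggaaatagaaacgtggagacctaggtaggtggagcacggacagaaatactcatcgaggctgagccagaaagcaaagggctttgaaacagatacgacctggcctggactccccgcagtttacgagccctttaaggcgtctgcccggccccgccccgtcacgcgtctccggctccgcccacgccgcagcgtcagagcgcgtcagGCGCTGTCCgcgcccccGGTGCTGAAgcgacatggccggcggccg
Syn1, chrX:20920869-20921168, minus strand: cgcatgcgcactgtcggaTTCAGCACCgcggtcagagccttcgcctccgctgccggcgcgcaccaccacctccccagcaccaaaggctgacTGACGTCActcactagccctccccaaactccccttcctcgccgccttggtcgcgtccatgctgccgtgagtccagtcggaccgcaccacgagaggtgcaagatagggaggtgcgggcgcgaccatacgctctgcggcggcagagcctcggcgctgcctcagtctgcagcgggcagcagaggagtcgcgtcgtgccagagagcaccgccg
Cadps2, chr6:23839372-23839671, minus strand: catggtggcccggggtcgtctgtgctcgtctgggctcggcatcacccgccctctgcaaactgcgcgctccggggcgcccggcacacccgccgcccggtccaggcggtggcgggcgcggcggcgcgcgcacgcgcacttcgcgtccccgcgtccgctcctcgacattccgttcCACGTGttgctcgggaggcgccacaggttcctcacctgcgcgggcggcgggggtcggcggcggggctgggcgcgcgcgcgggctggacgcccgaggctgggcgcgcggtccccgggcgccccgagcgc
In Unc13a both parts lie on the strand opposite to the gene, at bases 256 and 273 of the 300, after the annotated start. In Syn1 the left part lies at base 19 and the cAMP response element at base 92, and in Cadps2 the E-box lies at base 173. Rest itself was at 5.61 ± 0.24 (SD, n = 8), 0.02 above background (limma, adjusted p = 0.778), with 5.26 in tumour 2 and 6.06 in tumour 4.

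By tumour, the low values gathered in tumour 6 and the high ones in tumour 8. In tumour 6, 14 of the 34 detected members had their lowest level (41.2%), and 16% of all detected genes did. In tumour 8, 12 members had their highest level (35.3%), and 16.1% of all detected genes did. In tumour 8, 0 members had their lowest level, and 11.4% of all detected genes did. Tumour 5 was the lowest for 9 members (26.5%) and for 11.2% of all detected genes, and tumour 1 the highest for 7 (20.6%) and for 7.87%. Tumour 7 was the highest for 5 members (14.7%) and for 9.65% of all detected genes. Tumour 6 was the highest for 2 members, against 18.3% of all detected genes. In tumour 2 there were 0 highest and 1 lowest member, against 6.91% and 8.29% of all detected genes, and in tumour 4 there were 1 highest and 3 lowest, against 13.4% and 13%. The median deviation of the detected members from their own means was -0.22 in tumour 6 and 0.24 in tumour 8, where the medians over all detected genes were 0.02 and 0.00. In tumour 6, 9 members (26.5%) were more than 0.5 below their means, against 6.54% of all detected genes, and 2, Syt6 and Syt13 (5.88%), were more than 0.5 above, against 7.45%. In tumour 8, 9 members (26.5%) were more than 0.5 above their means, against 5.40% of all detected genes, and 0 were more than 0.5 below, against 3.46%. The neuroblast marker mean also had its minimum in tumour 6 and its maximum in tumour 8 (11.02), though tumour 7 was almost level with tumour 8 (10.99). The part of neuroblast content in these counts was not tested.

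**Figure D4:**
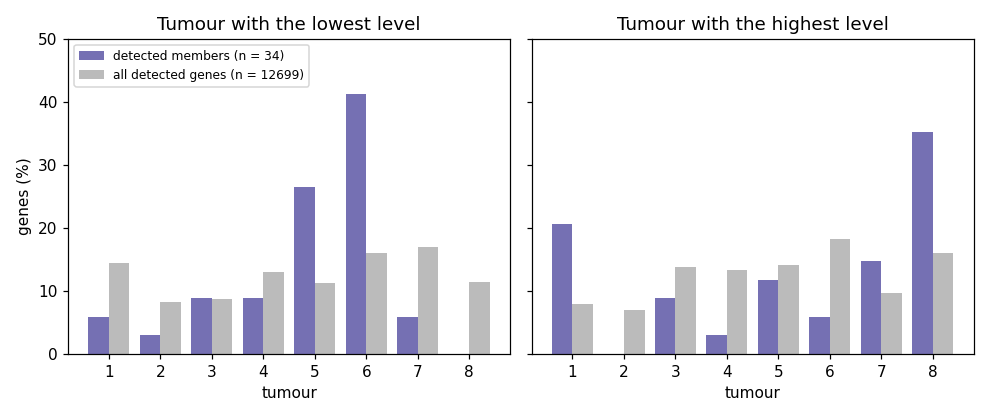
Percent of genes (y axis) that had their lowest (left panel) or highest level (right panel) in each tumour (x axis), for the 34 detected members beside all 12699 detected genes. The tallest member bars are tumour 6 on the left (41.2%) and tumour 8 on the right (35.3%), where all genes stand at 16% and 16.1%.

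Whether genes of partner proteins, or Rest and known targets of it, followed each other over the 8 tumours was tested in 16 pairs. None passed after Benjamini-Hochberg adjustment over the 16 (exact permutation over all pairings, two-sided). Unadjusted, 2 pairs had a p under 0.05 by Pearson's r and 4 by Spearman's rho. Syp and Vamp2, whose proteins bind each other on the vesicle, had r = 0.893 (exact permutation p = 0.00501, adjusted p = 0.0802) and rho = 0.762 (exact permutation p = 0.0368, adjusted p = 0.183). Without tumours 1 and 5, the farthest from the median of Syp, r was 0.54 over a narrower range of Syp (exact permutation p = 0.263), and with 1 tumour left out at a time it was 0.709 to 0.955. Sv2a and Syt1 had r = 0.839 (exact permutation p = 0.0114, adjusted p = 0.0909) and rho = 0.833 (exact permutation p = 0.0154, adjusted p = 0.183), and r = 0.79 without tumours 5 and 6 (exact permutation p = 0.0736). Leaving out 1 tumour moved 2 calls: Syp and Vamp2 passed without tumour 8 (r = 0.955, exact permutation, adjusted p = 0.0349, with 0.0349 to 0.332 over all alternatives), and Sv2a and Syt1 without tumour 4 (r = 0.912, exact permutation, adjusted p = 0.0286, with 0.0286 to 0.302).

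Other pairs stayed further from the threshold. Bsn and Pclo had r = 0.701 and rho = 0.69 (exact permutation p = 0.0558 and 0.0694, adjusted p = 0.297 and 0.222), and r = 0.726 without tumours 6 and 7. Unc13a and Rims1 had r = 0.501 and rho = 0.762 (exact permutation p = 0.232 and 0.0368, adjusted p = 0.535 and 0.183), and r = 0.876 without tumours 1 and 7. Snap25 and Vamp2 had r = 0.527 and rho = 0.738 (exact permutation p = 0.175 and 0.0458, adjusted p = 0.535 and 0.183), and r = 0.225 without tumours 5 and 6. Syt1 and Snap25 had r = 0.449 and rho = 0.0952 (exact permutation p = 0.274 and 0.84, adjusted p = 0.535 and 0.896), and r turned to -0.281 without tumour 6. Stx1a and Snap25, the SNARE partners of the plasma membrane, had r = 0.077 and rho = 0.19 (exact permutation p = 0.871 and 0.665, adjusted p = 0.935 and 0.804). Rest had r of -0.19, -0.414 and -0.327 with Syn1, Snap25 and Syt4 (exact permutation p = 0.632, 0.282 and 0.44, adjusted p = 0.843, 0.535 and 0.649). Rest was not detected (0.02 above background on average), so these r values use levels near background. In the remaining 6 pairs, r lay between -0.417 (Sncg and Sncb) and 0.488 (Syt7 and Cadps).

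**Figure D5:**
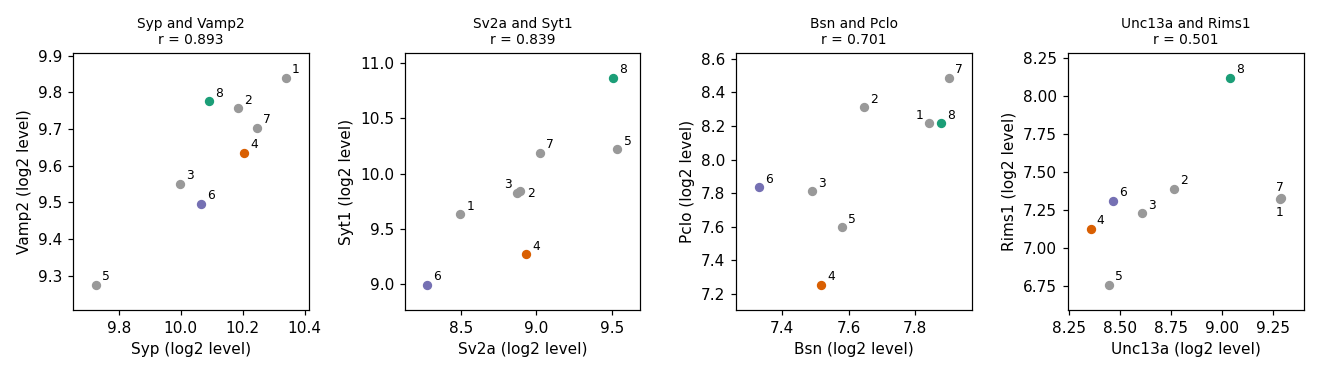
Log2 level of the first gene (x axis) against the second (y axis) in 4 of the tested pairs, with 1 point per tumour, numbered. Syp and Vamp2 run from tumour 5 at the lower left to tumour 1 at the upper right, and Sv2a and Syt1 from tumour 6 to tumours 5 and 8.

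Other genes of the pathway were set beside the members. Values of 62 such genes were used, of which 49 passed the detection test (79.0%, against 57.3% of all genes). The median SD of these 49 was 0.27, and 14 of 49 (28.6%) exceeded 0.41, against 14.6% of all detected genes. Of the 49, 15 were lowest in tumour 6 (30.6%) and 16 highest in tumour 8 (32.7%), against 16% and 16.1% of all detected genes. The ATPase gene Nsf, which takes SNARE complexes apart after fusion, was among the even ones (8.62 in tumour 1 to 8.98 in tumour 8). Farthest below background were Cplx4, Sytl5, Sytl2 and Syt10, with mean differences of -1.66, -1.58, -1.15 and -1.0.

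The largest SDs among the detected genes of that list belonged to Sytl4, Slc18a3, Doc2b and Ppfia2. Sytl4 (granuphilin), a Rab27 effector on dense-core granules, was at 5.95 in tumour 6 and 9.73 ± 0.38 (SD, n = 7) in the others, a 13.7-fold difference, in the tumour with the lowest neuroblast marker mean (their part was not tested). Ppfia2 (liprin-alpha-2), an active zone scaffold, fell to 8.28 in tumour 6, against 10.49 ± 0.34 (SD, n = 7) in the others. Slc18a3, the vesicular acetylcholine transporter, went the other way, with 10.68 in tumour 6, a median of 8.71 and 7.23 in tumour 8. Doc2b, a calcium sensor of spontaneous release, was at 5.58 in tumour 1 and 6.37 in tumour 6, had a median of 7.42 and was highest in tumour 8 (8.67).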

How the data were processed

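Total RNA of 8 tumours was measured on Affymetrix mouse arrays, 1 per tumour. Each probe set has 1 deposited log2 value per tumour. Per the submitters' processing notes, RMA and Partek 6.5 were used by the authors, without saying which did what. That the scale is log2 follows from the range, 2.07 to 13.61. Build and annotation: not given in the sources used here. Of 41345 probe sets, 23521 had 1 gene symbol, 1814 several and 16010 none. No gene was read from a probe set with several. The background used 1435 receptor probe sets. For detection, limma 3.58.1 (R 4.3.3) tested each level minus background over 22180 genes, with a trended, robust prior. In simulated data on as many genes, 21580 lay at background and 200 each at 0.25, 0.5 and 1 above it. The test called 2%, 72.5% and 94.5% of the raised genes and 0.0185% of those at background. In the tumours 57.3% of genes were called, a larger share than was raised in the simulation. The adjusted cut-off therefore differed, and these rates do not give the error or power of the test on the tumours. Variation between tumours was described without a test. Relations, promoter searches and plots used Python 3.11.15 (numpy 2.4.6, pandas 2.3.3, scipy 1.17.1, matplotlib 3.10.9).

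The number of arrays limits the precision. The lowest, median and highest values are given for the 12 detected members with the largest SD and for the core vesicle and fusion genes. From the other pathway genes, those named are the 4 with the largest SD, the 4 farthest below background, Nsf and Rest. Any other gene was picked with its values in view. The members, the lists, the pairs and the rules were chosen with earlier results of these data known. Alternatives were the mean of all probe sets, centred and again quantile normalized arrays, 2 other background levels, limma without trend or robust prior, a filter on low genes, Spearman's rho, and leaving out each tumour.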

Additional observations from a re-analysis of the deposited data

Results flagged for a closer look

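In 9 of the 36 members, 1 tumour lay apart from the other 7 by more than Dixon's 95% critical value for 8 samples, which chance exceeds in about 1 of 20 groups. Counting detected genes alone, it was 8 of 34 members (23.5%) and 6.95% of all detected genes. Tumour 6 was the low one for Snap25 (10.74), Snap91 (9.56), Rab3b (7.42), Syn3 (7.70) and Cadps (7.57), and the high one for Cadps2 (6.99). Tumour 8 was the high one for Cplx2 (8.00) and Rims1 (8.12), and tumour 3 the low one for Syt5 (7.36).

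Of the other pathway genes, tumour 6 was low for Syt17 (6.84), Sytl4 (5.95) and Ppfia2 (8.28), and high for Sytl2 (5.14), which stayed below background. Tumour 8 was high for Rph3a (7.40), a Rab3 effector, and Unc13c (7.46), a Munc13 relative that was not detected on average, and tumour 7 was high for Ppfia4 (6.37). Among the cell type markers, tumour 6 was low for Dbh (5.72), Gata3 (6.93), Tfap2b (4.88) and Stmn2 (11.99) and high for the muscle myosin gene Myh4 (8.96), and tumour 4 was high for the glial genes Gfap (10.71) and S100b (6.20). The part of cell content in the members' values was not tested.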

How the results depend on the processing

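The count of detected members stayed between 32 and 36 over 7 processing alternatives (32 and 41.9% of all genes against the 99th percentile of receptor probe sets, 36 and 90.9% against their median) and was 34 without each tumour in turn. In the detection of Syt9 against the 99th percentile of receptor probe sets, it lay below background (-0.84, limma, adjusted p = 0.0035, with 9.6e-07 to 0.827 over all alternatives). In the detection of Sv2b against that percentile, it was not told apart from background (-0.11, limma, adjusted p = 0.683, with 7.3e-07 to 0.683). In the detection of Cadps2 against the median of receptor probe sets, it lay above (1.36, limma, adjusted p = 0.000877, with 3.6e-09 to 0.0608). The background itself moved in these settings. The call of Cadps2 below background was lost without tumour 1, 2, 3, 4, 5, 7 or 8 (limma, adjusted p = 0.0503 to 0.0608), and Syt9 passed against the median (2.29). The count with a large SD was 12 to 14 without tumours 1 to 5 or 7, 10 without tumour 8 and 9 without tumour 6, and 13 or 14 under other processing. Members lowest in tumour 6 numbered 13 to 18, and those highest in tumour 8 numbered 9 to 14, with 9 after a second quantile normalization. With another tumour left out, these counts can only stay or rise, so such counts are not comparable with those over all 8 tumours (14 and 12). For these lowest and highest counts, the shares over all detected genes are not given by setting, so their ranges do not show an excess of members. The count of pairs past the threshold, 0 in the deposited values and by Spearman's rho, was 0 to 1 with a tumour left out. It was 1 after quantile normalization, namely Syp and Vamp2 (r = 0.902), and 1 without tumour 8 (the same pair, r = 0.955) or tumour 4 (Sv2a and Syt1, r = 0.912), and the cause was not tested. No paired analysis was possible because there is 1 group. Values near background limit Syt6, Sv2b, Syt9, Cadps2 and the pairs with Rest.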

Other observations

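The genes given here are not members and were picked with their values in view. Slc17a6, a vesicular glutamate transporter, peaked in tumour 6 (9.24), followed by tumours 2 (7.40) and 4 (6.85), while the rest ranged from 4.59 to 5.10 (SD over all 8 tumours 1.67). Its mean was 0.40 above background (limma, adjusted p = 0.469). Slc17a7, a second glutamate transporter gene, and Slc32a1, the GABA transporter gene, lay near background in all tumours (Slc17a7 5.10 to 5.86, Slc32a1 5.45 to 6.12). Slc18a2, which loads catecholamines into vesicles, ran from 8.75 in tumour 1 to 10.41 in tumour 2 and was at 9.49 in tumour 6. Syt17 was at 6.84 in tumour 6 and 9.05 ± 0.22 (SD, n = 7) in the others.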
